A study of Mus musculus with 12 samples.

Results

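The comparison described here asks what an AEG-1 transgene adds in mouse liver that already carries a c-Myc transgene. It sets the 3 livers with both transgenes (AEG1_MYC) against the 3 livers with c-Myc alone (MYC), 6 of the 12 RNA-sequencing libraries of the series, chosen by the genotype in their labels. All mice were adult and untreated offspring of heterozygous Alb/AEG-1 and Alb/c-Myc parents. Alb marks lines in which the albumin promoter drives the transgene, so that it is expressed in hepatocytes, and the Alb/c-Myc transgene is shared by both groups compared. The other 6 libraries, 3 wild type (WT) and 3 with AEG-1 alone (AEG1), entered the same model and served to measure what AEG-1 did without c-Myc. The labels give no exact age, sex, litter, collection time or source species of the AEG-1 transgene, and replicate numbers here follow the order of deposit and name a mouse only.

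AEG-1, the protein of Mtdh, is a scaffold protein of the endoplasmic reticulum and nucleus that binds RNA-processing and NF-kB factors and is raised in many liver tumours. c-Myc is a transcription factor that pairs with Max at E-box sequences and drives growth and division. Wnt signalling through beta-catenin and TCF/LEF factors sets the zones of the liver lobule: hepatocytes around the central vein make glutamine and carry ammonium, while those around the portal vein make urea and glucose. Several direct Wnt targets are inhibitors of the pathway and report its activity. The imprinted Dlk1-Dio3 region holds noncoding RNAs that are transcribed from the maternal chromosome only and are nearly silent in adult liver.

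Levels are given as CPM (counts per 1000000 reads in genes, after TMM scaling), in the order of replicates 1, 2 and 3. Differences are log2 fold changes, AEG1_MYC minus MYC, ± SE from edgeR's quasi-likelihood fit, with p-values adjusted by Benjamini-Hochberg over 13684 genes. Called means an adjusted p under 0.05. The 6 libraries held 28373138 to 36177913 reads in genes. Albumin took 2.87% to 7.07% of those reads. AEG1_MYC replicates 1 and 2 stood apart from every other library. On the first principal component, which held 36.0% of the variance, they lay at 34.1 and 99.2, while AEG1_MYC replicate 3 lay at 10.7 and the MYC livers between -17.8 and -6.44. Myc itself was 23.4, 30.5 and 53.7 CPM in MYC livers and 73.0, 165 and 58.4 CPM in AEG1_MYC livers. Its groups did not overlap, but the difference of 1.46 ± 0.42 was not called (adjusted p = 0.200), and it was 0.87 without AEG1_MYC replicate 2. Mtdh was at 99.3, 95.6 and 96.6 CPM against 112, 91.5 and 88.9 CPM, and since the species of the transgene is not stated, it does not check the label.

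Livers with both transgenes expressed 28 genes more highly than livers with c-Myc alone, 0.205% of those tested, and edgeR called 0 genes lower, where limma called 0 and DESeq2 101. At an unadjusted p under 0.05 were 1212 genes higher and 863 lower. The 28 rises ran from 0.75 to 9.03, with a median of 3.42, and 25 of them were at least 1. In all 28 the lowest AEG1_MYC liver lay above the highest MYC liver, and in 27 it also lay above every WT and AEG1 liver. The rises were unequal among the 3 AEG1_MYC livers, with replicate 2 highest in 22 genes and replicate 3 lowest in 21. Clock genes varied among the MYC livers, and edgeR called 0 of the 20 tested. Arntl, a core activator of the circadian clock, was 48.7, 49.7 and 4.27 CPM in MYC and 2.77, 8.24 and 2.09 CPM in AEG1_MYC livers. MYC replicates 1 and 2 thus stood apart from MYC replicate 3, which lay with the AEG1_MYC livers. The difference in Arntl of -2.96 was not called (adjusted p = 0.269). With a score of 11 clock genes as a covariate, 6 of the 28 were called and all 28 differences were still positive. Their median was 3.51 with the score and 3.42 without it, 15 were larger and 13 smaller, and single differences moved by -0.58 to 0.83, while the median SE of the 28 went from 0.42 to 0.53.

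**Figure D1:**
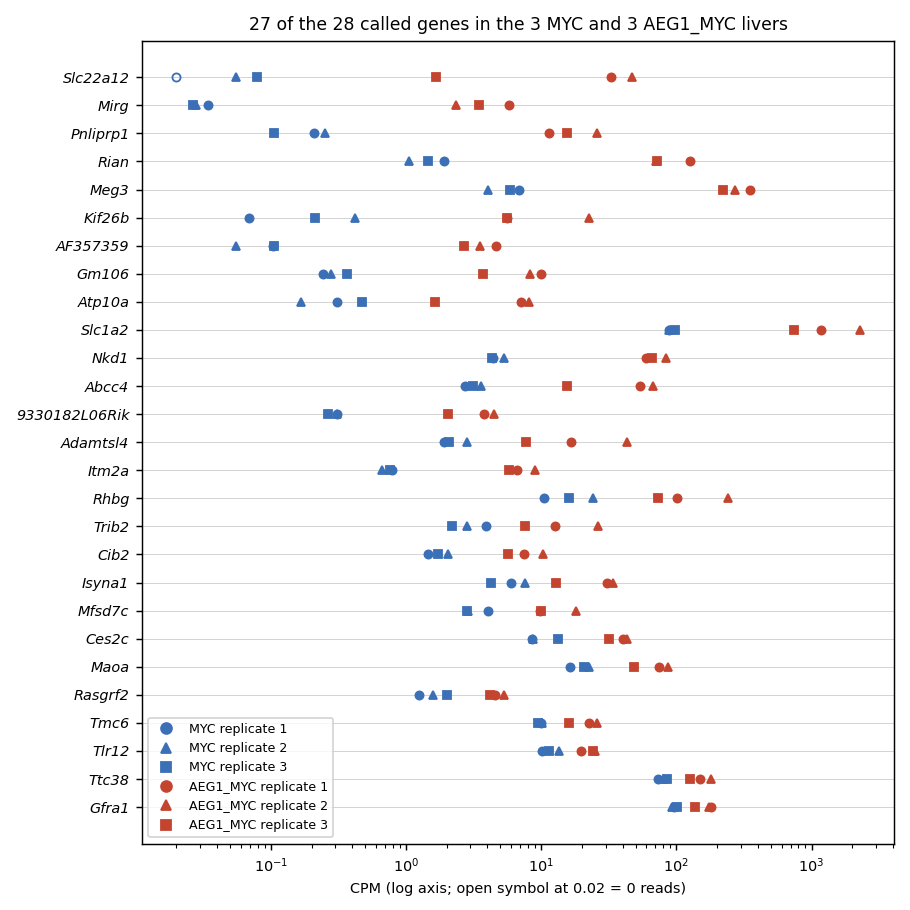
Level of 27 of the 28 called genes (rows, ordered by log2 fold change) in CPM on a log axis, for the 3 MYC livers (blue) and the 3 AEG1_MYC livers (red), with replicates 1, 2 and 3 as circle, triangle and square and open symbols for 0 reads. Red and blue symbols do not overlap in any row, and the red square (replicate 3) is the lowest of its group in 20 rows.

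The gene with the smallest p was Nkd1, an intracellular inhibitor of Wnt signalling and itself a Wnt target. Nkd1 stood at 4.39, 5.27 and 4.32 CPM in MYC livers and at 59.8, 83.9 and 66.2 CPM in AEG1_MYC livers. It rose by 3.91 ± 0.16 (adjusted p = 1.29e-06), and all 3 AEG1_MYC livers were far above the 6 WT and AEG1 livers at 5.55 to 7.14 CPM. In the list of Wnt feedback targets 15 of 17 genes were tested, 14 had positive differences and the median difference was 1.59, against 0.01 over all genes. In 11 of the 15 the groups did not overlap with AEG1_MYC higher, where 9.64% of all genes did so, and 0 were lower without overlap, where 8.85% of all genes were.

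Nkd1 was the only member that passed over all genes. Sp5, a Wnt-induced transcription factor, was at 1.14, 2.56 and 2.13 CPM in MYC and 7.30, 25.3 and 8.38 CPM in AEG1_MYC livers (2.80 ± 0.52, adjusted p = 0.0707). Lect2, a secreted hepatocyte protein and beta-catenin target, was at 77.5, 104 and 71.1 against 231, 328 and 149 CPM (1.49 ± 0.29, adjusted p = 0.0788). Lef1, one of the factors through which beta-catenin acts, came to 6 reads in the 3 MYC libraries and 155 in the 3 AEG1_MYC libraries. These 3 genes were highest in AEG1_MYC replicate 2 and separated the groups in every liver. Lgr5, a receptor that amplifies Wnt signals, was at 5.73, 7.44 and 5.11 against 14.3, 73.8 and 15.9 CPM, and Axin2, a scaffold of the complex that destroys beta-catenin, at 8.36, 23.3 and 6.88 against 28.4, 70.4 and 34.8 CPM. Neither was called (2.51 ± 0.62 and 1.79 ± 0.49, adjusted p = 0.152 and 0.177), and without AEG1_MYC replicate 2 the difference in Lgr5 was 1.31. The extracellular inhibitor Dkk3 was the member with a negative difference (-0.31 ± 0.21). The list's median per liver, measured as the distance from the MYC mean, was 1.11, 2.40 and 1.06 in AEG1_MYC replicates 1, 2 and 3. Without replicate 2 the median difference was 1.18, and with replicate 3 as the lone AEG1_MYC liver it was 1.07. DESeq2 called 11 of the 15 higher and 0 lower, where it called 350 of all 13684 genes higher and 101 lower.

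The 250 bases before the transcription start, taken from RefSeq (GRCm38.p6), were searched on both strands for CTTTGAT and CTTTGAA, core letters bound by TCF/LEF factors, and for CACGTG, the E-box bound by Myc and Max. Of the 28 called genes 24 had a promoter in that table, and 3 of these (Slc1a2, Kif26b and Slc22a12) held a TCF/LEF core and 3 (Abcc4, Mfsd7c and Rasgrf2) an E-box. Over all 32851 promoters of the same length the shares were 7.48% with either TCF/LEF core and 6.02% with the E-box. These shares are per single promoter, while a gene counted if any of its windows held the letters. A gene with several windows thus had more chances of a match. The windows of Slc1a2, Nkd1, Abcc4, Atp10a and Tmc6 lie at internal starts, 1501 to 48199 bases downstream of the outermost start RefSeq lists, so the bases before the outermost start of these genes were not searched. The Nkd1 window held none of these letters. Of the other Wnt feedback and pericentral genes 22 had a promoter in the table, 7 of them with a TCF/LEF core and 6 with an E-box. CTTTGAT itself was in 4 of the 7: Sp5, Lect2, Cyp2c29 and, at an internal start, Tnfrsf19. Lef1 and Tnfrsf19 held the E-box only before an internal start. The promoters of Sp5, Lect2 and Cyp2c29 are printed because they hold CTTTGAT (in capitals, as ATCAAAG where it lies on the other strand) while their differences have both signs, positive for Sp5 and Lect2 and negative for Cyp2c29. Each reads 5′ to 3′ along the gene's strand and ends at the base before the start that the table gives. A match describes the letters only, since binding was not measured.
Sp5, chr2:70474673-70474922, plus strand: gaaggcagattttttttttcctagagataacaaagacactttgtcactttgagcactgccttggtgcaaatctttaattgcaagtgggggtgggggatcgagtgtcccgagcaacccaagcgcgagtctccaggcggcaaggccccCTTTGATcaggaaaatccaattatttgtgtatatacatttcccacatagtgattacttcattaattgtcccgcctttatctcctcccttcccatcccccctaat
Lect2, chr13:56548539-56548788, minus strand: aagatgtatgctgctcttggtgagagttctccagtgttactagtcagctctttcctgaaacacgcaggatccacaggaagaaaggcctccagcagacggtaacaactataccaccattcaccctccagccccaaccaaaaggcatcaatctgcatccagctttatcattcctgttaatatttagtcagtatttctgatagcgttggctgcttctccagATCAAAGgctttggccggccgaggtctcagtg
Cyp2c29, chr19:39286835-39287084, plus strand: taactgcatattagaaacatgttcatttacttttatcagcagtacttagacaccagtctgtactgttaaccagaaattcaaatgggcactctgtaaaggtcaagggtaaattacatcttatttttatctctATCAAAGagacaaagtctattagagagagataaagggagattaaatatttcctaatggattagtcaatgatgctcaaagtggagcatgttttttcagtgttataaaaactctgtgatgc

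Pericentral hepatocyte genes stood higher in AEG1_MYC than in MYC livers. Slc1a2, a glutamate carrier, was at 88.0, 87.6 and 98.1 CPM in MYC livers and at 1185, 2291 and 742 CPM in AEG1_MYC livers, and rose by 3.95 ± 0.47 (adjusted p = 0.0103). Rhbg, an ammonium carrier, stood at 10.5, 24.1 and 16.1 against 101, 239 and 72.8 CPM and rose by 3.02 ± 0.43 (adjusted p = 0.0237). For both genes every AEG1_MYC liver also lay above all 6 livers without c-Myc. Of the 23 pericentral genes tested, 20 had positive differences, the median was 1.48, and in 18 the groups did not overlap with AEG1_MYC higher (9.64% of all genes), while 0 were lower without overlap (8.85% of all genes).

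The other members did not pass over all genes. Glul, the glutamine synthetase of the innermost pericentral hepatocytes, was at 507, 907 and 493 CPM in MYC and 3063, 15859 and 3069.6 CPM in AEG1_MYC livers (3.53 ± 0.66, adjusted p = 0.0740). Oat, which breaks down ornithine, was at 341, 574 and 626 against 1923, 4681 and 2185 CPM (2.51 ± 0.45, adjusted p = 0.0588). Cyp1a2, a drug-oxidising enzyme, stood at 453, 478 and 379.9 against 1067, 1629 and 854 CPM (1.44 ± 0.29, adjusted p = 0.0929). Each of these separated the groups, with replicate 2 far above the other AEG1_MYC livers for Glul, whose difference was 2.27 without it. Not every pericentral gene was higher: Cyp2c29, at 3572, 3689 and 1755 against 806, 1015 and 2148 CPM, had a difference of -1.18 ± 0.48 (adjusted p = 0.284), or -0.26 with the clock score. Car3, a carbonic anhydrase, had one of -1.22 ± 0.49 (adjusted p = 0.284). Without AEG1_MYC replicate 3 it was -2.08, and Car3 was called lower (adjusted p = 0.0227). The list's median per liver was 1.30, 2.05 and 0.92 above the MYC mean in replicates 1, 2 and 3 and the median difference was 0.88 in the fit that kept replicate 3 alone. DESeq2 called 17 of the 23 higher and 0 lower, where it called 350 of all 13684 genes higher and 101 lower.

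Periportal genes were low in 1 liver. Of 22 tested 9 had positive differences, the median was -0.34, and edgeR and limma called 0 and DESeq2 1 higher. Among all 13684 genes DESeq2 called 350 higher. The groups did not overlap in 1 gene higher (4.55%, against 9.64% of all genes) and 5 lower (22.7%, against 8.85%). Cyp2f2, a cytochrome P450 of portal hepatocytes, was at 1404, 1072 and 1164 CPM in MYC livers and at 508, 2.70 and 1039 CPM in AEG1_MYC livers. Gls2, the liver glutaminase, was at 378, 363 and 522 against 477, 1.78 and 436 CPM. Cps1, the first enzyme of the urea cycle, was at 3418, 3261 and 3162 against 3100.1, 175 and 3436 CPM. In all 3 genes the low value belonged to AEG1_MYC replicate 2, and the other AEG1_MYC livers lay near or within the MYC range for Gls2 and Cps1. The list's median was 0.06 without replicate 2, and -0.70 and -0.61 without replicates 1 and 3. It was -0.06 without MYC replicate 3 and -0.65 with the clock score. In whole tissue, fewer cells of a type and less RNA per cell cannot be told apart.

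**Figure D2:**
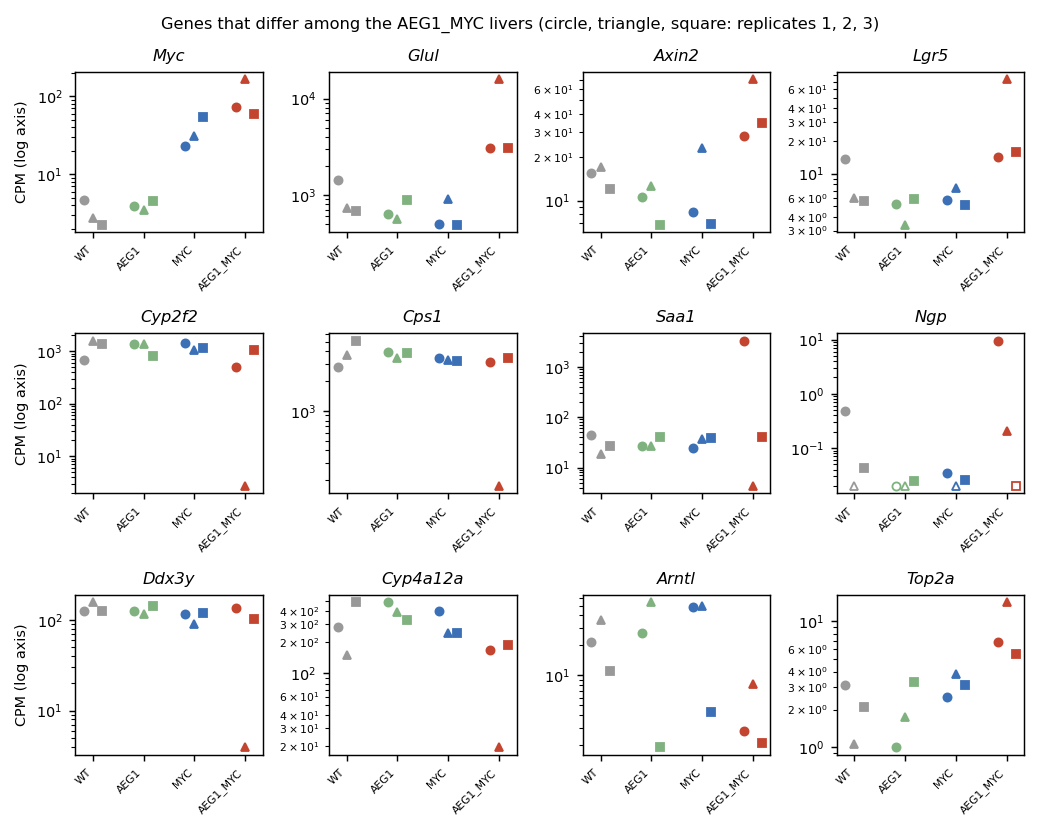
CPM on log axes for 12 genes in every liver of the 4 genotypes, with replicates 1, 2 and 3 as circle, triangle and square and open symbols for 0 reads. Glul, Axin2 and Lgr5 are higher in all 3 AEG1_MYC livers than in all 3 MYC livers, Cyp2f2, Cps1, Ddx3y and Cyp4a12a are lowest in AEG1_MYC replicate 2, and Saa1 and Ngp are high in AEG1_MYC replicate 1.

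The noncoding RNAs of the Dlk1-Dio3 region rose together. Meg3, the first of the maternal transcripts, was at 6.91, 4.01 and 5.88 CPM in MYC livers and at 349, 273 and 221 CPM in AEG1_MYC livers (5.65 ± 0.84, adjusted p = 0.0282). Rian, which hosts small nucleolar RNAs, was at 1.90, 1.06 and 1.45 against 125, 70.2 and 72.2 CPM (5.93 ± 0.61, adjusted p = 0.0031). AF357359, a small nucleolar RNA inside the span of Rian, had 9 reads in the 3 MYC libraries and 343 in the 3 AEG1_MYC libraries. Over the TMM-scaled library sizes this was a ratio of 41.2 with a 95% counting interval of 21.4 to 90.8 (adjusted p = 0.0129). Mirg, which hosts microRNAs, had 3 reads against 363, a ratio of 131 with a counting interval of 44.4 to 637 (adjusted p = 0.0129). All 3 AEG1_MYC livers were alike here, replicate 3 included: the median over the 4 transcripts was 5.98, 5.12 and 5.28 above the MYC mean. AEG1 livers without c-Myc were at 25.0, 20.5 and 5.62 CPM for Meg3 against 0.610, 7.69 and 7.98 CPM in WT livers, so that 2 of the 3 AEG1 livers lay above WT. The protein-coding genes of the region stayed too low to test, with 14 reads in MYC and 10 in AEG1_MYC for Dlk1 and 2 and 28 for Rtl1. Reads of AF357359 cannot be told apart from those of the Rian transcript around it, since the strand setting of the counts is not given in the sources used here.

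**Figure D3:**
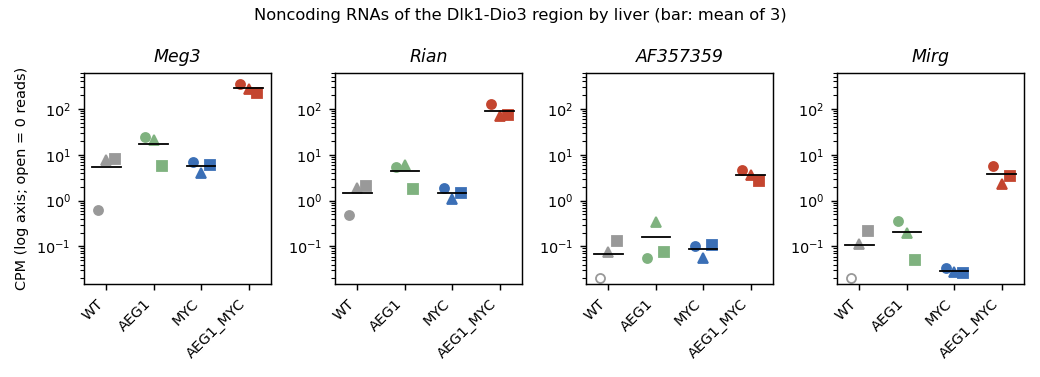
CPM of Meg3, Rian, AF357359 and Mirg on a log axis in each of the 12 livers, by genotype, with replicates 1, 2 and 3 as circle, triangle and square, the mean of 3 as a bar and open symbols for 0 reads. The 3 AEG1_MYC livers lie at 221 to 349 CPM for Meg3, above all other livers.

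The count tables also list 58 microRNA genes of the region. They held 2, 1 and 1 reads in the MYC libraries and 26, 10 and 29 in the AEG1_MYC libraries, and 4 and 16 of the 58 had a read in the 2 groups. Libraries of this kind read long RNA, so such reads come from precursors or host transcripts and mature microRNAs were not measured. The microRNA genes with the most reads, Mir3072 (1 in MYC, 17 in AEG1_MYC) and Mir369 (0 and 9), both lie within Mirg. Their mature forms in RefSeq (GRCm38.p6) are printed to show what the host encodes, with the seed, bases 2 to 8, in capitals. No seed is shared among the 4.
mmu-miR-3072-5p, chr12:109747893-109747914, plus strand: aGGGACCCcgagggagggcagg
mmu-miR-3072-3p, chr12:109747928-109747949, plus strand: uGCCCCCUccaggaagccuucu
mmu-miR-369-5p, chr12:109743431-109743452, plus strand: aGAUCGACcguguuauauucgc
mmu-miR-369-3p, chr12:109743466-109743486, plus strand: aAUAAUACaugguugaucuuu

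Among membrane carriers, Slc22a12, the urate exchanger known from the kidney tubule, had the largest rise. It was listed at 0, 0.0557 and 0.0790 CPM in MYC livers, 5 reads in all, and at 32.7, 47.2 and 1.67 CPM in AEG1_MYC livers, 2635 reads in all. The ratio over the TMM-scaled library sizes was 569, with a counting interval of 244 to 1754 (adjusted p = 0.0254). Of the 13 kidney tubule markers listed 5 had 0 reads in all 6 libraries, and the only other one tested, Lrp2, was at 1.21, 1.14 and 1.58 against 0.429, 0.385 and 1.32 CPM. The summed level of these markers was 1.45 to 1.95 CPM in MYC and 3.24 to 47.9 CPM in AEG1_MYC livers, most of it Slc22a12 in replicates 1 and 2. Abcc4, a pump that exports bile acids and cyclic nucleotides, rose from 2.73, 3.57 and 3.11 CPM to 53.6, 67.7 and 15.5 CPM (3.86 ± 0.49, adjusted p = 0.0129). Of 40 uptake carriers tested 13 were higher without overlap and 0 lower, among them the hepatocyte organic anion carrier Slco1b2 (0.75 ± 0.19, adjusted p = 0.148). Slc1a2, Slc1a4, Slc13a3, Slc22a3 and Slc16a10 are also in the pericentral list, so the uptake count is not independent of the pericentral one. Of 34 ABC transporters 7 were higher and 2 lower without overlap, where 9.64% of all genes were higher and 8.85% lower. The medians of the uptake and ABC lists were 0.13 and 0.12, and -0.06 and 0.02 with the clock score.

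Pnliprp1, a pancreatic lipase relative, was among the largest rises. It stood at 0.207, 0.251 and 0.105 CPM in MYC and 11.5, 26.1 and 15.5 CPM in AEG1_MYC livers (6.54 ± 0.51, adjusted p = 4.74e-04). Pnlip, pancreatic lipase itself, had 0 reads in the 3 MYC livers and at most 0.0296 CPM in the AEG1_MYC livers, and of the 18 pancreas acinar markers listed 6 had 0 reads in all 6 libraries. Pnliprp1 was the 1 called of the 3 tested, whose median difference was -0.36. The summed level of the listed markers was 28.2 to 37.1 CPM in MYC and 29.9 to 59.5 CPM in AEG1_MYC livers. Kif26b, a kinesin-related protein, was at 0.0691, 0.418 and 0.211 against 5.58, 22.4 and 5.62 CPM (5.53 ± 0.74, adjusted p = 0.0140). Gm106, named Sbspon in RefSeq, was at 0.242, 0.279 and 0.369 against 10.01, 8.30 and 3.72 CPM (4.60 ± 0.41, adjusted p = 0.0014). Atp10a, a phospholipid flippase, stood at 0.311, 0.167 and 0.474 against 7.10, 8.15 and 1.64 CPM (4.13 ± 0.68, adjusted p = 0.0462). Replicate 3 was the lowest of its group in Gm106 and Atp10a and the middle one in Pnliprp1 and Kif26b.

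Further called genes, named after their values were seen, covered metabolism and signalling. Ces2c, a carboxylesterase, rose from 10.2 ± 2.78 to 38.4 ± 5.90 CPM (SD, n = 3; 1.92 ± 0.19, adjusted p = 0.00307). Maoa, monoamine oxidase A, rose from 20.02 ± 3.22 to 69.8 ± 19.6 CPM (1.801 ± 0.234, adjusted p = 0.0129). The inositol-producing enzyme Isyna1 (2.12 ± 0.33), the calcium-binding protein Cib2 (2.17 ± 0.29), the Ras activator Rasgrf2 (1.54 ± 0.23), the pseudokinase Trib2 (2.39 ± 0.40), the matrix protein Adamtsl4 (3.31 ± 0.54), the membrane proteins Itm2a (3.25 ± 0.43), Mfsd7c (1.96 ± 0.32) and Tmc6 (1.14 ± 0.19), and Ttc38 (0.92 ± 0.14) rose as well, with adjusted p between 0.0129 and 0.0496. Gfra1, the GDNF receptor subunit, had the smallest rise, from 96.9 ± 4.07 to 163 ± 23.3 CPM (0.75 ± 0.13, adjusted p = 0.0496). Gfra1 was the called gene in which AEG1_MYC livers (137 to 179 CPM) overlapped the WT livers (117 to 142 CPM).

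EdgeR and limma called no gene lower, DESeq2 called 101, and the 10 genes with the smallest p among those lower by at least 1 on the log2 scale in groups that did not overlap are given as values. DESeq2 called all 10 of these lower and limma none of them. Onecut1, a transcription factor of hepatocyte and bile duct development, was at 69.0, 35.4 and 45.4 CPM in MYC and 13.9, 9.51 and 9.15 CPM in AEG1_MYC livers (-2.20 ± 0.48, adjusted p = 0.114). WT livers were at 10.4 to 18.2 CPM, in the range of the AEG1_MYC livers. Aacs, acetoacetyl-CoA synthetase, stood at 193, 301 and 310 against 81.4, 125 and 164 CPM (-1.12 ± 0.25, adjusted p = 0.117). Irgm1, an interferon-induced GTPase, had the lowest p of the 10 (-1.07 ± 0.21, adjusted p = 0.0788), at 140.1, 96.7 and 105 against 49.2, 44.9 and 69.1 CPM. Gata4, a transcription factor, was at 43.1, 37.6 and 29.6 against 17.6, 13.0 and 16.8 CPM (-1.22 ± 0.28, adjusted p = 0.125, and -0.68 with the clock score as a covariate). The rest were the pseudogenes Gm6682 (-1.18) and Serpina4-ps1 (-3.22), the serpin Serpina9 (-3.74), prostaglandin E synthase Ptges (-1.70), the PI3-kinase subunit Pik3r3 (-1.14) and the chloride channel Ano1 (-1.15), with adjusted p of 0.0929 to 0.143.

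The AEG-1 transgene without c-Myc was compared in the same model. In AEG1 against WT livers edgeR called 0 genes, with 536 at an unadjusted p under 0.05 and a lowest adjusted p of 0.836, while DESeq2 called 15 and limma 0. The 28 genes had a median difference there of 0.05, from -0.88 to 1.66, and 16 of them were positive. The difference between the 2 effects, tested in the same model as an interaction, was positive in all 28. That sign was largely set in advance, since the 28 were chosen for their rise on the MYC background. The test of the difference passed over all genes for 3, and these 3 were the only genes called in it (0.0219% of those tested). Nkd1 differed by 4.02 ± 0.21 (adjusted p = 2.0e-05): AEG1 livers were at 5.77, 5.68 and 5.72 CPM and WT livers at 7.14, 5.86 and 5.55 CPM. Gm106 differed by 4.65 ± 0.60 (adjusted p = 0.0476), at 0.243 to 0.351 CPM in AEG1 and 0.213 to 0.383 CPM in WT livers. Tlr12, a Toll-like receptor for parasite profilin, moved in opposite directions on the 2 backgrounds. It was at 16.8, 14.4 and 13.8 CPM in WT, 7.55, 7.81 and 9.04 CPM in AEG1, 10.1, 13.7 and 11.4 CPM in MYC and 19.6, 25.1 and 24.3 CPM in AEG1_MYC livers. The rise on the MYC background was called (0.98 ± 0.15, adjusted p = 0.0311), the difference of -0.88 ± 0.15 on the WT background was not, and the 2 differed by 1.86 ± 0.21 (adjusted p = 0.0221). Slc1a2 and 9330182L06Rik, named Elapor2 in RefSeq, came next (4.51 ± 0.62 and 3.76 ± 0.52, both adjusted p = 0.0521). Nkd1 passed this test whichever library was left out, and alone without any WT or AEG1 liver, MYC replicate 1 or AEG1_MYC replicate 2, while 32 genes passed without AEG1_MYC replicate 3. Upper-quartile scaling called Nkd1 and Tlr12 only. On the WT background the median difference was -0.32 for Wnt feedback targets and -0.20 for pericentral genes, where it was 1.59 and 1.48 on the MYC background.

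**Figure D4:**
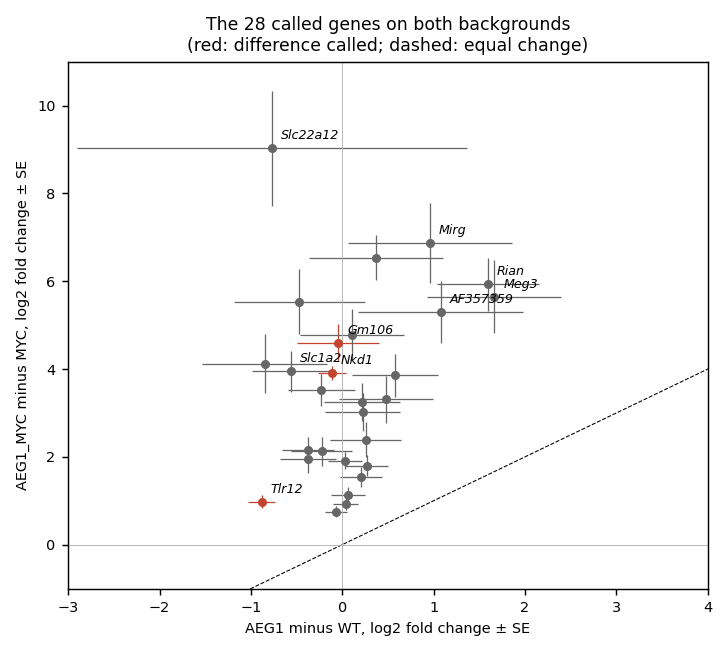
Log2 fold change ± SE of the 28 called genes for AEG1 against WT (x axis) and AEG1_MYC against MYC (y axis), with the dashed line marking equal change and red points the 3 genes called in the test of the difference. All 28 points lie above the line, a side largely set by choosing them for their rise on the y axis.

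In the lists of cell cycle genes, partners and targets of Myc and binding partners of AEG-1 edgeR and limma called 0 members. DESeq2 called 3 cell cycle genes higher, against 350 of all 13684 genes. Of 37 cell cycle genes 34 had positive differences, and the median was 0.72. The groups did not overlap in 16 higher (43.2%, against 9.64% of all genes) and 1 lower (2.70%, against 8.85%). The S-phase kinase Cdk2 was at 12.6, 13.6 and 12.9 CPM in MYC and 18.7, 22.0 and 17.8 CPM in AEG1_MYC livers (0.58 ± 0.13, adjusted p = 0.114). The thymidine kinase Tk1 was at 4.94, 8.08 and 6.19 against 13.1, 11.2 and 12.5 CPM (0.94 ± 0.24, adjusted p = 0.157), and the mitotic cyclin Ccnb2 at 0.587, 0.919 and 1.05 against 2.54, 6.37 and 2.50 CPM (2.15 ± 0.59, adjusted p = 0.177). These are the 3 genes that DESeq2 called (adjusted p = 0.0038, 0.0144 and 0.0167). They separated the groups in every liver. At an unadjusted p under 0.05 in edgeR, 13 cell cycle genes were higher and 1 lower, where 1212 and 863 of all 13684 genes were. The list's median was 0.49, 0.99 and 0.42 above the MYC mean in replicates 1, 2 and 3, and 0.48 without replicate 2. Partners and targets of Myc had a median of 0.09 over 36 genes, and Max, its partner, was at 24.6, 23.2 and 26.8 against 35.2, 48.5 and 27.9 CPM (0.58 ± 0.18, adjusted p = 0.211, and 0.34 without AEG1_MYC replicate 2). Binding partners of AEG-1 had a median of -0.14 over 11 genes.

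Conjugation enzymes with NRF2 targets and secretory stress genes had medians of opposite sign. EdgeR and limma called 0 in either list, while DESeq2 called 7 of the former higher and 1 of the latter in each direction. Among all 13684 genes DESeq2 called 350 higher and 101 lower. Of 37 conjugation enzymes and NRF2 targets 29 had positive differences, with a median of 0.36 (0.15 without AEG1_MYC replicate 2). Without overlap 12 were higher (32.4%, against 9.64% of all genes) and 2 lower (5.41%, against 8.85%). Gstm2, a glutathione transferase with near-identical relatives that make its counts uncertain, was at 19.4, 46.1 and 20.4 against 105, 283 and 65.9 CPM. Of 23 genes of the unfolded protein and integrated stress responses 9 were lower without overlap (39.1%, against 8.85% of all genes). In the other direction were 0, against 9.64% of all genes. The list's median was -0.34, and -0.11 with the clock score as a covariate. At an unadjusted p under 0.05 in edgeR were 14 higher and 1 lower in the first list and 1 and 7 in the second. Over all 13684 genes 1212 were higher and 863 lower at that threshold. The chaperone Hspa5 stood at 1899, 1886 and 1362 CPM in MYC and 753, 713 and 943 CPM in AEG1_MYC livers (-1.10 ± 0.34, adjusted p = 0.215, and -0.47 with the clock score). Hspa5 in WT livers ran from 1037 to 2424 CPM. Interferon-response genes had a median of -0.42, with 24 of 30 negative, and -0.68 on the WT background. Of the 30, 4 were lower without overlap, a share of 13.3% near the 8.85% of all genes. The median was -0.24 without AEG1_MYC replicate 2 and -0.76 with the clock score. Their median per liver was -0.54, -0.76 and 0.15 in AEG1_MYC replicates 1, 2 and 3, and 0.04 in the fit with replicate 3 alone. Bile duct markers had a median of -1.17 over 10 genes, 9 of them negative. Sox9, a duct and progenitor transcription factor, was at 18.96, 21.8 and 4.69 against 3.50, 0.889 and 2.73 CPM (-2.68 ± 0.80, adjusted p = 0.209, and -0.84 with the clock score), and the summed level of the duct markers was 122 to 177 CPM in MYC and 51.5 to 99.98 CPM in AEG1_MYC livers. Without MYC replicate 3 their median was -0.62.

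**Figure D5:**
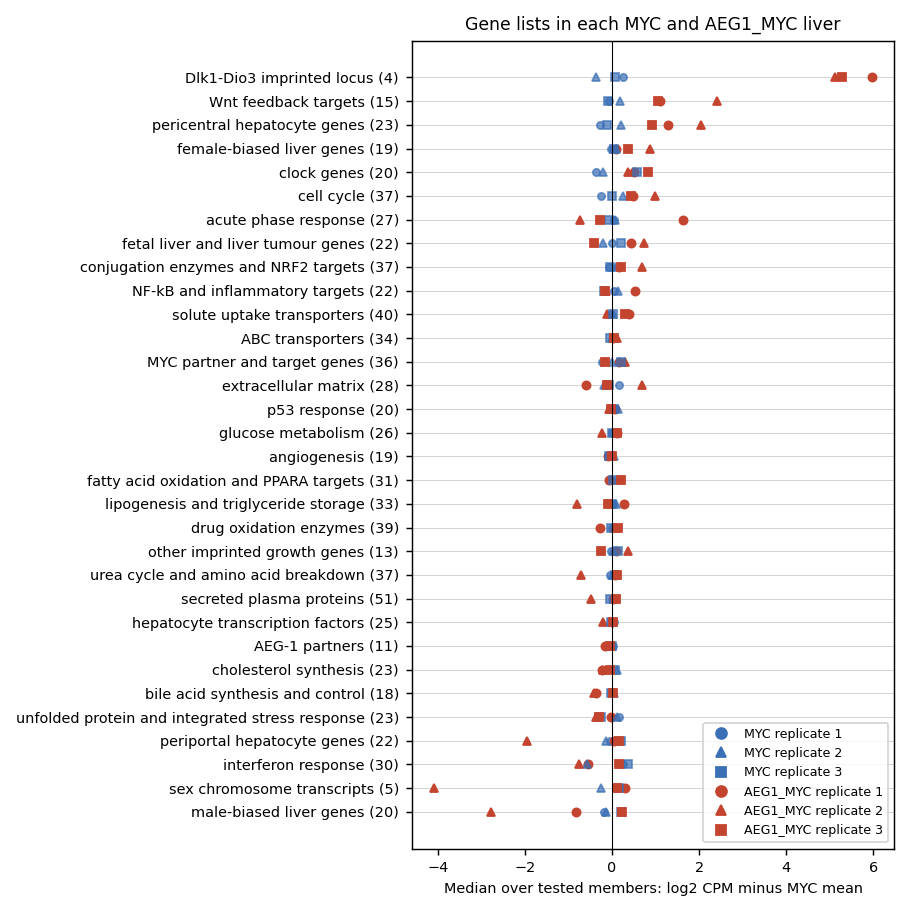
Median over the tested members of each of 32 gene lists (number tested in brackets) of log2 CPM minus the MYC mean, for each MYC liver (blue) and each AEG1_MYC liver (red), with replicates 1, 2 and 3 as circle, triangle and square. All 3 red symbols lie near 1 or above for Wnt feedback targets and pericentral genes, while the acute phase list is high only in replicate 1 and the male-biased list lowest in replicate 2.

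Some groups were set by 1 liver. Acute phase genes had a median of 0.71, which was -0.34 without AEG1_MYC replicate 1. Saa1, serum amyloid A, was at 24.5, 37.3 and 38.8 CPM in MYC and 3330.0, 4.30 and 41.0 CPM in AEG1_MYC livers, and Lcn2, lipocalin 2, at 8.32, 8.86 and 8.14 against 1210.0, 19.6 and 9.34 CPM. The neutrophil list also holds Lcn2, so its sum is not independent of the acute phase list. Its summed level was 10.04 to 14.8 CPM in MYC livers and 1286, 23.6 and 11.1 CPM in AEG1_MYC livers, mostly Lcn2. In AEG1_MYC replicate 1 S100a9 was at 24.1 CPM and Ngp at 9.61 CPM. Kupffer cell and macrophage markers summed to 426 to 631 CPM in MYC and 1383, 275 and 389 CPM in AEG1_MYC livers. Male-biased liver genes had a median of -0.60, which was -0.18 without replicate 2 and -1.34 without replicate 3. Cyp4a12a, a male-specific fatty acid hydroxylase, was at 397, 244 and 244 CPM in MYC and 169.5, 19.6 and 188 CPM in AEG1_MYC livers. In replicate 2 the Y-linked helicase Ddx3y was also low, at 3.94 CPM, while the other 5 livers ran from 90.7 to 135 CPM. Xist, the RNA of the inactive X chromosome in females, was near 0 in replicate 2 as well, at 0.533 CPM against 0.104 to 0.330 CPM, so that this liver was low in both kinds of sex chromosome transcript. What part these differences between livers have in the 28 rises was not tested beyond leaving livers out.

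Leaving out 1 liver at a time moved the number of calls. Without AEG1_MYC replicate 1 or 2 it was 21 or 20. Without replicate 3, the liver nearest to MYC, it was 450, 294 higher and 156 lower, with all 28 among them. In that fit 9 of 16 Wnt feedback targets and 13 of 23 pericentral genes were called higher, and 0 and 1 were called lower. The pericentral gene called lower was Car3 (-2.08, adjusted p = 0.0227). Without MYC replicate 1, 2 or 3 it was 6, 7 or 6. Leaving out WT replicate 1, 2 or 3 gave 17, 16 or 17 calls and leaving out AEG1 replicate 1, 2 or 3 gave 16, 18 or 30, although these livers are not part of the contrast. Nkd1, Pnliprp1, Gm106, Ces2c, Rian and 9330182L06Rik were called in each of these 12 fits. With replicate 3 as the lone AEG1_MYC liver, assumed to vary like the other groups, Nkd1, Pnliprp1 and Gm106 were called. The other 22 lost their call in at least 1 of the 12 fits, among them Slc1a2, Abcc4, Maoa, Cib2, Itm2a, Kif26b, Mirg and AF357359 only without a MYC liver. Meg3 lost it in 9 of the 12 and Slc22a12 in 10, and the highest adjusted p among the 12 fits was 0.194 for Meg3, 0.182 for Slc22a12 and 0.157 for Rhbg. The stable genes were partly others in edgeR's fit of the 6 compared libraries alone. There 7 genes were called: Nkd1, Pnliprp1, Rian, Mirg, AF357359, Itm2a and Meg3 (adjusted p = 0.0043 for Meg3). Gm106, Ces2c and 9330182L06Rik were not called in it (adjusted p = 0.0608, 0.0956 and 0.0940), nor were Slc1a2, Rhbg and Slc22a12. DESeq2 called 451 genes, 350 higher and 101 lower, the 28 among them. All 28 differences were positive in every fit.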

How the data were processed

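Liver RNA of 12 mice was sequenced, 3 per genotype. For each library the authors deposited a table of unnormalised counts by gene symbol, made with CASAVA 1.8.2, TopHat2 2.0.7 on mm9 and HTSeq, per the submitters' processing notes. Annotation and strand setting are not given in the sources used here, and overlapping or antisense genes may share reads. Reads aligned at several places, 46.5% to 58.0% of all values, and the other summary lines (5 per table) stayed out of library sizes and tests. Counts of near-identical genes, such as the Gstm, Cyp2c and Saa families, are uncertain.

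Of 22609 genes, 13684 passed edgeR's filterByExpr. Counts were TMM-scaled, and 1 coefficient per genotype was fitted over all 12 libraries with the robust quasi-likelihood test of edgeR 4.0.16 in R 4.3.3 (two-sided). AEG1_MYC minus MYC, AEG1 minus WT and their difference were tested. SEs (median 0.207) were obtained from the fold change and its F statistic. The fit was tested on simulated data in which all groups had the same spread, whereas the AEG1_MYC livers here varied more than the others. It recovered 25 of 50 genes changed by 1 on the log2 scale and 42 of 50 changed by 2. Among the unchanged genes there were 11 false calls. The labels do not say that mice of 1 genotype came from separate litters, and no 2 libraries of the same genotype agreed within sampling noise. Counting intervals cover counting error only.

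The members and the 32 gene lists and 12 marker lists were chosen with earlier results of these data known. Named genes were the 10 largest rises among called genes with a mean of at least 1 CPM and no overlap, 10 genes of smallest p among those not called but lower by 1 or more (log2), up to 4 members per list by p, Myc, Mtdh and the 5 of smallest p in the difference. Not every list member so chosen is printed, and 1 called gene is not reported by name here. Other settings tried were scaling by RLE or upper quartile, leaving low counts in, a filter at 1 CPM in 3 libraries, DESeq2 1.42.0, limma 3.58.1 with quality weights, no robust step, the 6 libraries alone, libraries left out, and, chosen after the data were seen, a clock score as a covariate (mean log2 CPM of Per1, Per2, Per3, Tef, Dbp and Usp2 minus that of Arntl, Npas2, Clock, Cry1 and Nfil3).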

Additional observations from a re-analysis of the deposited data

Results flagged for a closer look

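For 3 genes the change with the AEG-1 transgene differed between the MYC and the WT background in the test of that difference itself (edgeR's quasi-likelihood test, adjusted over 13684 genes). The difference on the log2 scale was 4.02 ± 0.21 for Nkd1, 4.65 ± 0.60 for Gm106 and 1.86 ± 0.21 for Tlr12. Nkd1 kept this call whichever library was left out. Gm106 and Tlr12 lost it without any single WT or AEG1 liver, MYC replicate 1 or 3, or AEG1_MYC replicate 2. Gm106 also lost it without MYC replicate 2 or AEG1_MYC replicate 1, and with limma or upper-quartile scaling. Both genes lost it with the clock score as a covariate. For Nkd1 and Gm106 the AEG1 livers lay within the WT range and the AEG1_MYC livers above all others, in 3 of 3 mice. For Tlr12 all 3 AEG1 livers lay below all 3 WT livers and all 3 AEG1_MYC livers above all 3 MYC livers.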

How the results depend on the processing

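All 28 called differences stayed positive under every alternative. Their number was 22 to 27 with RLE or upper-quartile scaling, either other filter, limma or no robust step, of which limma's 25 held 20 of the 28. It was 451 with DESeq2, 7 with the 6 compared libraries alone, 3 without AEG1_MYC replicates 1 and 2 together and 6 with the clock score (chosen after the data were seen), and ran from 6 to 450 with 1 library left out. The 3 genes called in the difference between backgrounds became 153 with DESeq2, 5 with limma and 5 without the robust step. That count was 1 without AEG1_MYC replicates 1 and 2 together, 1 with the clock score, and 1 to 32 with 1 library left out. In AEG1 versus WT, DESeq2 called 15 genes, against 0 in edgeR. Why DESeq2 called more was not tested, and fewer libraries leave fewer degrees of freedom. With 3 livers a group and a median SE of 0.207, small differences were not detectable.

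Of the single genes named, 8 that were not called turned sign under at least 1 alternative, and the cause was not tested. With 1 library left out the lowest and highest differences were -0.10 and 0.072 for Mtdh, -0.57 and 5.65 for Saa1, -1.03 and 0.13 for Ddx3y and -0.95 and 0.12 for Gls2. Without AEG1_MYC replicates 1 and 2 together, Cps1 was at 0.071, Gls2 at 0.054, Lrp2 at 0.0078, Mtdh at -0.12 and S100a9 at -1.28. With the clock score as a covariate Arntl, a part of that score, was at 0.36. No paired analysis was possible because the labels' numbers name single mice and are not shared between genotypes.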

Other observations

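Called genes were looked up for their neighbours in RefSeq after their values were seen. Besides the transcripts of the Dlk1-Dio3 region, Gfra1 and Pnliprp1 lay within 1 Mb of each other on chromosome 19, with 5 listed genes between them, 0 of which had enough reads to be tested. Whether such neighbours are more frequent than in other gene sets was not tested.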
